A study of Drosophila melanogaster with 2 samples.

Results

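The nuclear genes for respiratory complex I were examined for promoter occupancy by MESR4 in Drosophila melanogaster embryos. Members were the protein-coding genes of the Ensembl annotation whose symbol begins with ND-, 40 of 13834 protein-coding genes counted. Of these, 34 were main subunit genes and 6 were copies, whose symbols add L, L1 or L2 to that of a main subunit. ND-MNLL ends in L because it is named after its amino acids, so it was kept as a main subunit. RefSeq names the product of all 40 genes as a NADH dehydrogenase (ubiquinone) subunit or a like protein. MESR4 is a zinc finger protein. Its chromatin immunoprecipitation and sequencing (ChIP-seq) used flies of the MESR4-GFP strain, in which green fluorescent protein is fused to the C terminus of MESR4. The material was mixed-sex whole embryos aged 0 to 24 h, so every tissue of the embryo contributed. There was 1 group, with biological replicates 1 and 3, and no second condition to compare. A description in the labels names both samples as input, whereas their antibody label is MESR4 and their peak lists were made against a separate control, so they are treated here as MESR4 immunoprecipitates. Which antibody recovered the fusion protein is not stated. Values are taken from a list of 6415 peak summits that passed the authors' reproducibility threshold, and from a list of 30000 summits per replicate. Genes with a thresholded summit at most 500 bp from an annotated transcription start site (TSS) were counted as having a promoter peak and are called bound. The sources used here do not give the read depth of the libraries.

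Complex I oxidises NADH in mitochondria, passes the electrons to ubiquinone and pumps protons across the inner membrane. The N module of its matrix arm binds NADH, the Q module reduces ubiquinone, and the membrane arm moves protons. The core subunits of both matrix modules are encoded in the nucleus, while the core of the membrane arm is encoded in mitochondrial DNA. Around the core sit accessory subunits, all nuclear, that stabilise the enzyme. Subunit roles given here are those of the mammalian counterparts. Copies of fly respiratory genes are known as a class for testis-biased expression.

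All 34 main subunit genes had a MESR4 promoter peak, and none of the 6 copies had one. A promoter peak was found at 42.6% of all protein-coding genes. The exact (Clopper-Pearson) 95% interval was 89.7 to 100% for the main subunits and 0 to 45.9% for the copies, treating genes as independent. No copy had another protein-coding TSS within 1000 bp, a setting in which 24.7% of genes were bound. In that same setting 10 of 10 main subunits were bound. The difference between main subunits and copies was not tested, since genes are not replicates of a condition.

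The sequence under the strongest peaks is shown first, because it places the summit inside the gene. ND-ACP encodes the mitochondrial acyl carrier protein, an accessory subunit that also serves fatty acid synthesis. ND-30 is a core subunit of the Q module and ND-B22 an accessory subunit of the membrane arm. Each line runs from 20 bp upstream to 200 bp downstream of the TSS on the gene's strand, in the release 6 (dm6) genome from RefSeq. Capitals mark 21 bases centred on the summit. The windows are chr3L:1329929-1330149 on the plus strand for ND-ACP, chr3L:3159378-3159598 on the minus strand for ND-30 and chr2L:13370826-13371046 on the minus strand for ND-B22.
ND-ACP: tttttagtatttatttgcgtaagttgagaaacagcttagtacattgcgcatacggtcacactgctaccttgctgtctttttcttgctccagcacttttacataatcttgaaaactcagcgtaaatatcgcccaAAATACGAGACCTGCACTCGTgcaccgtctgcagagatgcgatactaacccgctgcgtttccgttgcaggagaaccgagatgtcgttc
ND-30: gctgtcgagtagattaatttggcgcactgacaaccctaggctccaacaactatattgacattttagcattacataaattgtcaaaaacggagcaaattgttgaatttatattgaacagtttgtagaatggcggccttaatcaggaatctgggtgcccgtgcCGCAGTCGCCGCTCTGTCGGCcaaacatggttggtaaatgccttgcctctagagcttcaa
ND-B22: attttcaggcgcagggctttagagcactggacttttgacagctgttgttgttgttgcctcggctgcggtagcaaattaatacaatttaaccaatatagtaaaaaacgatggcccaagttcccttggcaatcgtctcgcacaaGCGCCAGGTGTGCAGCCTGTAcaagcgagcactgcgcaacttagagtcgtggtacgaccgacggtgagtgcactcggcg
The summits lay 123, 151 and 132 bp downstream of the TSS at ND-ACP, ND-30 and ND-B22. At ND-30 and ND-B22 the summit was in coding sequence, and at ND-ACP it was in the first intron.

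ND-24, a core subunit of the N module that carries an iron-sulphur cluster, and its copy ND-24L were added after their values were seen, to set a bound gene beside an unbound copy. The windows are chrX:17632301-17632521 on the plus strand for ND-24 and chr3L:17320611-17320831 on the minus strand for ND-24L, drawn over the same span around the TSS.
ND-24: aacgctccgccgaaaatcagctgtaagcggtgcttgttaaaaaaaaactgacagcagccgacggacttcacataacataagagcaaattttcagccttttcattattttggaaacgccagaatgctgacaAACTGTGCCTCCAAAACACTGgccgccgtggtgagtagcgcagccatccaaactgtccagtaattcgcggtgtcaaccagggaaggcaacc
ND-24L: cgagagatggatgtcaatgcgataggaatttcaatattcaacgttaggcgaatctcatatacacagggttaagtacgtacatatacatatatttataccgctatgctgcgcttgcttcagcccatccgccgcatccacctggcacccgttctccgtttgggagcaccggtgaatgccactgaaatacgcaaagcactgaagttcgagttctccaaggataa
ND-24 had a summit 120 bp downstream of its TSS, again marked by capitals, and 19 bp past its start codon. The ND-24 window is drawn from the TSS nearest to the summit, which is not the canonical one. ND-24L has no capitals because the nearest thresholded summit lay 18302 bp from its TSS.

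Signal, the authors' measure of peak enrichment on a scale set per list, varied between main subunits. It ran from 193.7 at ND-AGGG to 939.7 at ND-ACP, with a median of 514.7, against a median of 467.9 over all 5889 bound genes. Within the strongest 3207 summits the order turned, with medians of 551.1 for main subunits and 611 for all bound genes. Of the 34 main subunits, 22 were above 467.9, the median of all bound genes. Their ranks ran from 462 to 5977 of 6415, with a median of 2044.5 against 2397 for all bound genes. Among the strongest 3207 summits, which served 27.4% of all genes, 28 of 34 main subunits kept a promoter peak. The 6 without one there were ND-51, ND-13B, ND-19, ND-PDSW, ND-B17.2 and ND-AGGG.

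**Figure D1:**
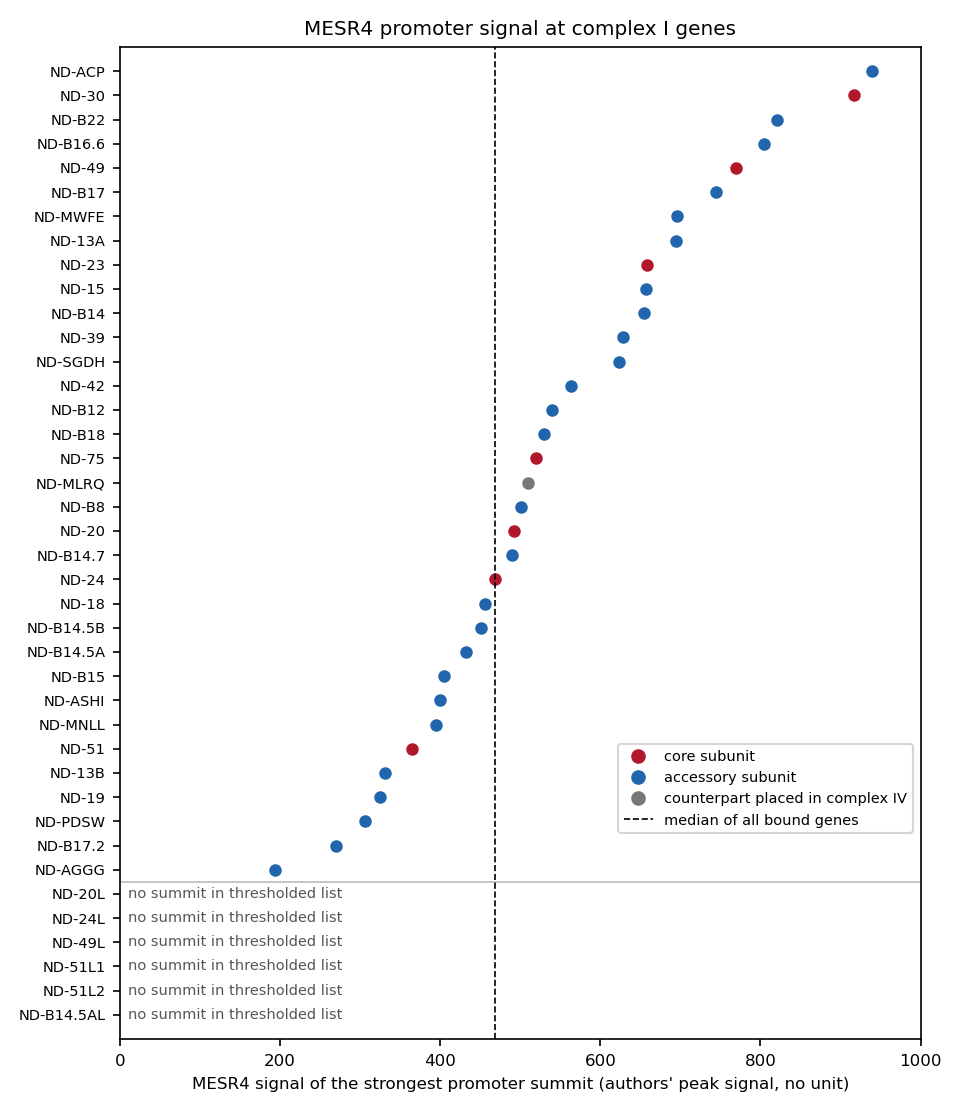
Signal of the strongest thresholded promoter summit (horizontal axis, authors' peak signal) for each complex I gene (vertical axis), with core subunits in red, accessory subunits in blue and ND-MLRQ in grey. The 34 main subunits spread from 193.7 to 939.7 around the dashed median of all bound genes (467.9), and the 6 copies at the bottom have no summit.

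The core subunits were bound in 7 of 7 cases, with a median signal of 519.9. Within the Q module, which passes electrons to ubiquinone, ND-30 had the highest signal. It was 916.6 in the thresholded list, 635.3 in the list of replicate 1 and 291.6 in that of replicate 3. ND-49, the partner of ND-20 at the ubiquinone site and the only member on the small chromosome 4, had 769.9 in the thresholded list, 529.1 in replicate 1 and 232.4 in replicate 3. Signals of different lists are on different scales, so replicates are compared by rank: ND-30 ranked 532 and 496 and ND-49 882 and 999 in replicates 1 and 3. ND-23, an iron-sulphur subunit, followed with a signal of 658.6, and ND-20, which carries the last iron-sulphur cluster before ubiquinone, had 491.7.

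The 3 core genes of the N module had lower signals than 3 of the 4 Q module genes. ND-75, the largest subunit, had 519.9, and ND-24 had 468.5. ND-51, which binds NADH and the flavin cofactor, had the lowest core signal at 364.6, with ranks of 3015 and 2980 in replicates 1 and 3. All 4 Q module genes were above the median of all bound genes and 2 of the 3 N module genes were, a difference on few genes that was not tested.

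The accessory subunits were bound in 26 of 26 cases, with a median signal of 515.4, close to that of the core. On the N module side, ND-13A, a zinc-binding subunit, had 694.9 and ND-18 had 455.8. ND-B14.5A had 431.9. ND-B17.2 had 270.0 and ND-B8 had 500.8, but both of these summits lay nearer to a neighbour's TSS. On the Q module side ND-B14 had 654.0, ND-39 628.9 and ND-13B 331.6.

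The accessory genes grouped as membrane arm and others held the strongest and the weakest member. This grouping does not place each of them, ND-ACP included, in that arm alone. ND-ACP had 939.7 in the thresholded list, 643.4 in replicate 1 and 292.5 in replicate 3, at ranks 514 and 488 in the replicates. ND-B22 had 820.4, with 581.5 in replicate 1 and 244.4 in replicate 3, at ranks 686 and 863. ND-B16.6 is the counterpart of the mammalian protein GRIM-19. It had 804.2, with 531.5 and 273.7 in replicates 1 and 3, at ranks 868 and 606. ND-B17 had 744.4, with 519.5 and 244.2 in replicates 1 and 3, at ranks 940 and 869. These 4 were ahead of ND-MWFE (695.8), ND-15 (657.0), ND-SGDH (623.0) and ND-42 (563.2). At the low end stood ND-19 at 324.6 and ND-PDSW at 305.9. ND-AGGG, a small membrane subunit, had 193.7 in the thresholded list, 148.1 in replicate 1 and 47.74 in replicate 3. Its signal was near the lowest of the thresholded list, 176.1. The remaining 7 genes of this group lay between 394.8 and 539.1. ND-MLRQ, whose mammalian counterpart is now placed in complex IV, had 509.6.

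The replicates held the main subunits in both lists. A promoter summit was present at 34 of 34 genes in the full list of each replicate. Of all 5889 bound genes, 5868 had one in both lists. The threshold by which genes count as bound already rested on reproducibility, so this presence was largely set beforehand. Among the 6415 strongest summits of each replicate, a promoter summit was present at 34 main subunits in replicate 1 and 33 in replicate 3. The shares of all protein-coding genes there were 41.7% and 43.3%. The main subunit missing in replicate 3 was ND-AGGG, at rank 7460. The best and weakest ranks were 514 and 5797 in replicate 1 and 488 and 7460 in replicate 3, with medians of 2056 and 2199.5. Across the 34 genes, ranks in the replicates had a Spearman correlation of 0.77, against 0.815 across 5868 bound genes, both as descriptions across genes that share the same 2 libraries. ND-MLRQ ranked 1594 and 3822 in replicates 1 and 3, while ND-SGDH ranked 1702 and 831.

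**Figure D2:**
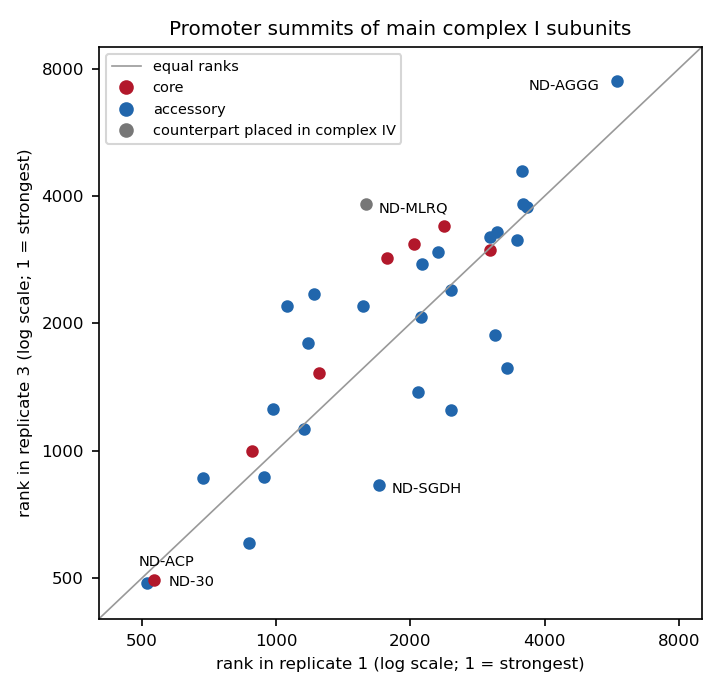
Rank of the strongest promoter summit of each main complex I subunit in the full list of replicate 1 (horizontal, log scale) and replicate 3 (vertical, log scale), with 1 the strongest and the line marking equal ranks. ND-ACP and ND-30 lie at the strong end of both axes (ranks 488 to 532), ND-AGGG at the weak end, and ND-MLRQ and ND-SGDH lie off the line on opposite sides.

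The 6 copies were followed below the threshold. In the list of both replicates before thresholding, which put a summit within 500 bp of a TSS at 62.5% of all genes, ND-51L1 alone of the 6 had one. Its rank was 24143 of 30000 and its signal 37.27, against 364.6 for ND-51. Replicate 1 had a summit 127 bp downstream of the ND-51L1 TSS at rank 21241, and replicate 3 had none within 500 bp. ND-49L, ND-20L, ND-24L, ND-51L2 and ND-B14.5AL had none in any of the 4 lists. The distance from a TSS to the nearest thresholded summit was 2137 bp at ND-51L1, 7208 bp at ND-51L2, 12261 bp at ND-20L, 18302 bp at ND-24L, 23079 bp at ND-49L and 110818 bp at ND-B14.5AL.

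The copies differ from the main genes in sequence and structure. Protein identity, computed from the annotated coding sequences, was 76.8% between ND-20L and ND-20, 75.5% between ND-51L1 and ND-51 and 62.2% between ND-49L and ND-49. It was 52.4% for ND-B14.5AL, 51.6% for ND-51L2 and 49.6% for ND-24L, each against its main subunit. Identity of the aligned coding bases was between 61.5 and 74.7%. The copies other than ND-49L had a single coding exon, while of the main genes they resemble only ND-20 had 1. ND-49L had 2 coding exons and ND-49 had 6. No copy shares a chromosome arm with its main subunit.

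A similar division was seen at the respiratory complexes II to V. Main subunit genes there were bound in 35 of 36 cases and copies in 1 of 19. Another protein-coding TSS was closer to the summit at that copy and at 2 of the 35. Signal was higher at those bound main subunits, with a median of 931.0 against 514.7 at complex I. This comparison of medians is a description, since neither set of genes consists of replicates. Across all symbols in the annotation that add L, L1 or L2 to another symbol, 4 of 28 were bound, and 21 of the 24 genes they extend were. By its rule that set counts again the complex I copies, and copies of complexes II to V whether bound or not. It is therefore not separate from them, and its symbols outside the respiratory complexes were not counted apart. Such symbols do not always mark a duplicate.

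**Figure D3:**
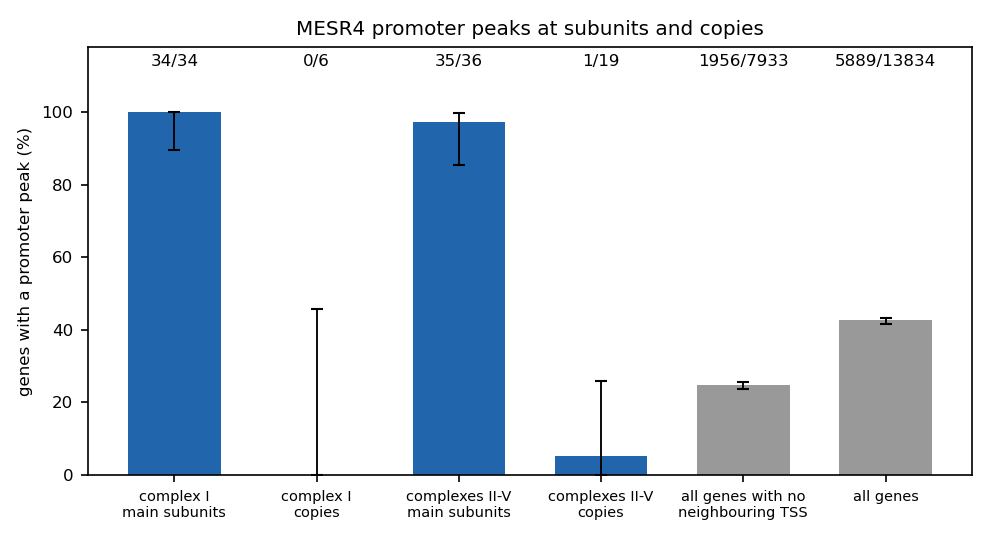
Share of genes with a thresholded MESR4 summit within 500 bp of a TSS (vertical axis, percent), with the count over each bar and exact 95% binomial intervals that treat genes as independent. Main complex I subunits stand at 34 of 34 and the copies at 0 of 6, complexes II to V at 35 of 36 and 1 of 19, and the grey bars give all genes without another protein-coding TSS within 1000 bp (24.7%) and all genes (42.6%).

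The summit lay inside the gene at most main subunits. It was downstream of the gene's nearest TSS in 30 of 34 cases (88.2%), against 65.6% of all bound genes. The median position was 117 bp downstream, with quartiles of 38.75 and 150.5 bp, against a median of 62 bp over all bound genes. In 20 of 34 main subunits the summit lay between 100 and 210 bp downstream (58.8%), against 34.8% of all bound genes. The 10 main subunits without another protein-coding TSS within 1000 bp had a median of 118.5 bp, against 80 bp for all bound genes in that setting. By replicate, the median over the 34 genes was 128.5 bp in replicate 1 and 97 bp in replicate 3, against 74 and 42 bp over the 5868 bound genes with a promoter summit in the full list of both replicates. Summits of the replicates lay within 50 bp of each other at 19 of the 34, a count with no share over all bound genes beside it.

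**Figure D4:**
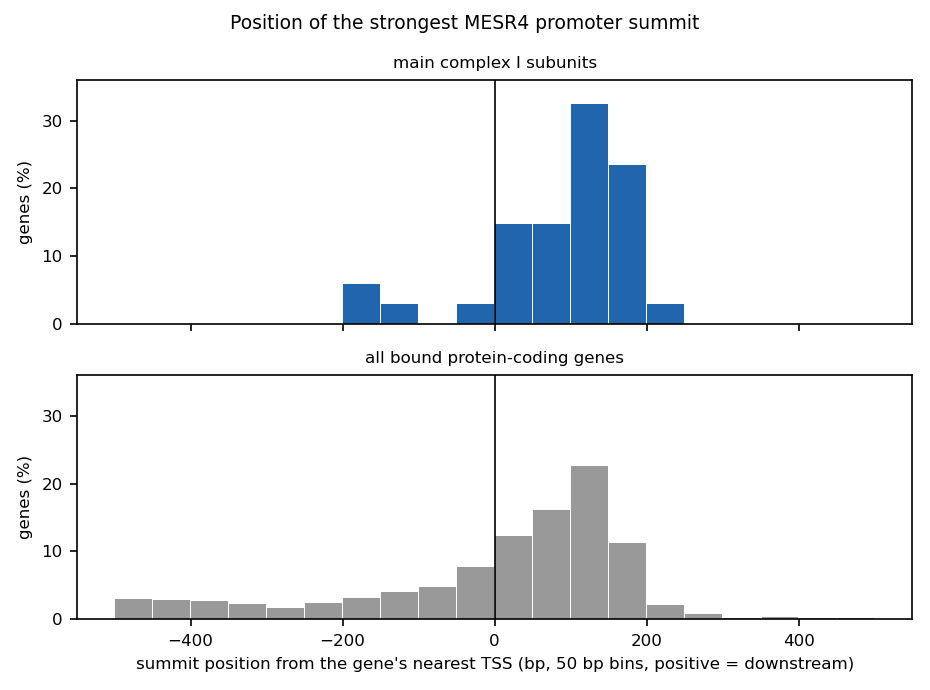
Position of the strongest thresholded promoter summit relative to the gene's nearest TSS (horizontal axis, bp, 50 bp bins, positive downstream) for the 34 main complex I subunits (top) and all 5889 bound genes (bottom), as a share of genes (vertical axis, percent). Summits of main subunits gather between 100 and 200 bp downstream, and all bound genes extend further upstream.

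The 4 upstream summits were at ND-B8 (177 bp), ND-B17.2 (151 bp), ND-75 (111 bp) and ND-20 (17 bp). At ND-75 and ND-20 this was upstream of an alternative TSS alone, and the summit lay 125 and 46 bp downstream of their canonical TSSs. At ND-B8 the summit was 4 bp from the TSS of Secp43 and at ND-B17.2 it was 31 bp from that of Arpc5. With each summit counted for its nearest TSS alone, these were the 2 main subunits without a promoter peak. That left 32 of 34, beside 35.8% of all genes. In all, 14 of the 34 summits (41.2%) had another protein-coding TSS within 500 bp, against 45.5% of all bound genes. At ND-MNLL the TSS of CG45089 and its own TSS were both 34 bp from the summit, a tie counted for ND-MNLL. Other neighbours included msl-2, 70 bp from the ND-PDSW summit, CG30161, 74 bp from the ND-19 summit, and Pus10, 97 bp from the ND-15 summit. A summit between such genes cannot be assigned to 1 of them.

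Main complex I subunit genes were shorter than the median gene. Their median length was 1103 bp, against 2187.5 bp for all protein-coding genes. The summit fell in a coding exon of the canonical transcript at 13 of the 34, in the first intron at 8, in the 5' UTR at 11 and outside the canonical transcript at 2. Over 5888 bound genes with a canonical coding transcript, 16.9% of summits were in a coding exon, 7.35% in the first intron, 40.5% in the 5' UTR and 34% outside. The median summit was 3 bp upstream of the start codon at main subunits and 196 bp upstream over all bound genes. GC content within 250 bp of the TSS had a median of 38.5% at main subunits, 40.1% at copies and 41.3% over all genes. Main subunits lay on X in 9 of 34 cases (26.5%), against 15.9% of all genes, and no copy lay on X.

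Sequence motifs were searched on both strands within 250 bp of the canonical TSS. The Motif 1 core GGTCACAC, bound by the factor M1BP, was in 8 of 34 main subunits, against 8.3% of all promoters and 17.3% of bound ones. The core of the DNA replication-related element (DRE), TATCGATA, was in 7 of 34, against 9.5% of all promoters and 18.8% of bound ones. One or both were in 14 of 34 main subunits (41.2%), in 33.9% of bound genes and 16.7% of all genes, and in none of the 6 copies. The CACGTG E-box was in 1 main subunit (7.02% of all promoters), TATAAA in 25 (54.1%) and GAGAG in 9 (43.9%). Of these, TATAAA was in 2 copies, GAGAG in 3 and CACGTG in none. A match describes letters in a window and not a binding site.

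The Motif 1 sites are shown with the bases around them. Each lies upstream of the summit, as does each DRE core site, where the summit lay 66 to 480 bp downstream. No count over other bound genes stands beside this order. The search was centred on the canonical TSS, and 30 of 34 main subunit summits lay downstream of their nearest TSS. The order was therefore partly set beforehand. Each line is on the strand of the gene with the core in capitals, read either forward or as its reverse complement, and 10 bases on each side. ND-PDSW has a further site upstream of the one shown, and sites at 2 more genes, ND-B14 and ND-MWFE, are not shown.
ND-ACP: ttgcgcatacGGTCACACtgctaccttg
ND-B17: ttaagagtgcGGTCACACtggcggcaac
ND-18: ccgctcgcctGGTCACACtggcactggc
ND-SGDH: tctgcaaaaaGTGTGACCgtttgccgtg
ND-PDSW: tgcggcatagGTGTGACCactacctcga
ND-13A: taaataaccaGTGTGACCgctgatcggt
The first base of the core was 33 bp downstream of the TSS at ND-ACP, 15 bp upstream at ND-B17 and 3 bp upstream at ND-18. At the 8 genes the summit lay 48 to 173 bp downstream of a core's centre. The 8 genes with this core had a median signal of 674.5, the 7 with a DRE core 431.9 and the 20 with neither 514.7. Their ranges overlapped, at 305.9 to 939.7, 324.6 to 658.6 and 193.7 to 916.6. The difference was not tested, and no medians over all bound genes with these cores stand beside it. ND-SGDH has both and is counted in both. With a window of 100 bp on each side of the summit, the Motif 1 core was in 2 main subunits (5.88%), against 7.05% of all bound genes, and the DRE core in 1 (2.94%), against 5.31%. In that window both shares were below those of all bound genes, whereas within 250 bp of the TSS they were above. Within 100 bp of the TSS the Motif 1 core was above (20.6% against 14%) and the DRE core below (11.8% against 15.3%).

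The nuclear respiratory gene (NRG) element, a palindrome described for fly genes of oxidative phosphorylation, was found downstream of the TSS. Within 250 bp of the canonical TSS it was in 4 of 34 main subunits, against 1.45% of all promoters and 1.85% of bound ones. It was in none of the 6 copies. Within 100 bp of the summit it was in 5 of 34, namely ND-24, ND-39, ND-51, ND-B22 and ND-MNLL, against 0.56% of all bound genes. From the TSS to 500 bp downstream, a window chosen after these values were seen, it was in 8 of 34 main subunits, against 1.23% of all genes.

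These NRG sites are printed to show where the element lies in each gene and the bases around it. Their likeness to each other is set by the search itself. Capitals mark the element, with 10 bases on each side, on the strand of the gene. One further gene, ND-19, has its site on a chromosome arm whose sequence is not shown.
ND-51: atgccatcaaATTATGTAATttttgcgcaa
ND-B22: attcccaaatATTATATAATgagcaagtgc
ND-B8: ccgcttttaaATTATATAATttgctaaagc
ND-24: tgttccccgaGTTATATAATtggcgacagg
ND-B17: tgtcgtgggtATTATGTAATcaagtttttg
ND-PDSW: attccagacaATTACATAATgacataacct
ND-MNLL: actcgtttttATTACGTAATgcggcaaaat
All 8 sites lay in introns of the canonical transcript, 6 of them in the first. They began 206 to 443 bp downstream of the canonical TSS, and 7 of the 8 were downstream of the start codon, ND-MNLL being the exception. These tallies describe the 8 sites in the window chosen after the values were seen, with no count over other genes beside them. The MESR4 summit was upstream of the site at 7 of 8 genes. It lay 19 bp from the site's centre at ND-51, 60 bp at ND-MNLL, 88 bp at ND-B22 and 96 bp at ND-24, but 409 bp at ND-B8.

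A list of 28 names and identifiers, made for assembly factors and a further subunit, gave 18 genes in the annotation. Of these, 16 were bound, beside 42.6% of all genes. For 10 of the 18 the annotation or a RefSeq synonym gives the listed name, and all 10 were bound. The other 8 are known here by identifier alone and are not shown to be complex I genes, and 6 of them were bound. NP15.6, a subunit gene with another symbol, had a signal of 465.8. Nubpl, which supplies iron-sulphur clusters to the complex, had 766.9. CIA30, an assembly chaperone, had 409.1 and sicily, another assembly factor, had 464.8. At 4 of the 10, ECSIT, CG5569, l(2)37Bb and 140up, a neighbouring gene's TSS was closer to the summit.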

How the data were processed

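MESR4 ChIP-seq was analysed from 2 biological replicates of 1 group. Per the listing deposited with each sample, the authors called peaks and background regions in dm6 for each replicate and for both together, against 1 control alignment, and thresholded them on the irreproducible discovery rate. The deposited signal of each peak is the authors' enrichment value. Aligner, caller, threshold and read depth are not given in the sources used here. Intervals on shares cover the counting of genes only.

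Genes, TSSs and canonical transcripts came from Ensembl release 115 on 6 chromosome arms, without 111 histone cluster genes, and sequence from the release 6 genome. The strongest summit within 500 bp of any TSS of a gene gave its signal. Summit positions were summed from start and offset. Coding sequences were translated and aligned with Biopython 1.88 (BLOSUM62, gap penalties 11 and 1). The gene counting was tested on simulated data with planted summits. Members, lists and motifs were chosen with earlier results of these data known. All members may be named, with full values for the 6 strongest, those without a peak and the copies. Assembly factors were matched by symbol or RefSeq synonym, and 11 of the 28 list entries, bare identifiers, are given as counts alone. No test between groups was possible with 1 group. Alternatives were windows of 250 and 1000 bp, the strongest 3207 summits, each replicate alone, nearest and canonical TSSs, genes without neighbours and other motif windows.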

Additional observations from a re-analysis of the deposited data

How the results depend on the processing

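The main subunit count was 34 of 34 with windows of 250 and 1000 bp, beside 38.6% and 45.3% of all genes. It was 28 in the strongest 3207 summits (27.4%), and 34 and 33 with replicate 1 or 3 alone (41.7% and 43.3%). It was 32 with the nearest TSS alone (35.8%) and with the canonical TSS alone (40%). With the canonical TSS, ND-39 and ND-49 lost their peaks because their summits lay 3414 and 912 bp from it. The copy count was 0 in each of these alternatives. The nearest protein-coding TSS, added later, left 32 main subunits and 0 copies, beside 36% of all genes. Median signal was 514.7, or 1.1 times that of all bound genes. The ratio was 0.902 in the strongest 3207 summits (median 551.1), 1.18 with the nearest TSS alone (525) and 1.19 for genes without neighbours (524.3), and the cause was not tested. It was 1.06 and 1.1 with replicate 3 or 1 alone, where the medians of 161.3 and 361.8 are on other scales. The median summit position ran from 97 to 128.5 bp with 1 replicate alone. Motif counts moved with the window. Within 100 bp of the TSS, DRE was in 4 main subunits (7.57% of all genes, 15.3% of bound ones) and the E-box in 0 (2.94% of all genes). In that window TATAAA was in 14 (28.7%), GAGAG in 3 (22.5%) and NRG in 0 (0.333%). Within 100 bp of the summit, DRE was in 1 (5.31% of bound genes), the Motif 1 core in 2 (7.05%), the E-box in 0 (4.36%), GAGAG in 2 (20.5%) and TATAAA in 4 (11.8% of main subunits, also below its share of bound genes). From the TSS to 500 bp downstream, a window added later, these counts were DRE 2 (1.94% of all genes), Motif 1 core 4 (3.93%), E-box 0 (7.63%), TATAAA 11 (33.2%), GAGAG 16 (44.7%) and NRG 8 (1.23%). No paired analysis was possible because there is 1 group. The 2 replicates limit what can be said of the order of members.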
